A study of Mus musculus with 8 samples.

Results

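NKX homeobox genes encode transcription factors, and 9 of them were followed across the 8 libraries of a mouse conditional knockout of Eed: Nkx2-1, Nkx2-2, Nkx2-4, Nkx2-9, Nkx6-1 and Nkx6-2, which pattern ventral neural tissue, and Nkx2-3, Nkx2-5 and Nkx3-2, which are best known from gut, heart and skeleton. The members were chosen by name, and they are 9 of the 36317 genes in the expression table. Total RNA of dissected tissue was sequenced in 4 groups of 2 libraries each. EED-cKO forebrain at embryonic day (E) 15.5, in which Eed is deleted by a Cre recombinase driven by Sox1, was set against wild-type (wt) forebrain at E15.5. Spinal cord at E13.5 was set against forebrain at E13.5, both wt. The labels do not say whether a library came from 1 embryo or from pooled tissue, so p-values measure the spread between libraries, which may be technical. Values are RPKM (read number scaled to transcript length and to the mapped reads of the library) in steps of 0.1 RPKM, and because no counts are given, the reads behind each value are unknown. The labels give only a target of about 50M reads.

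The Polycomb complex PRC2 needs EED to place the repressive mark H3K27me3, which covers many silent developmental regulator genes, NKX genes among them. Sox1 is a gene of the early neural plate, so cells outside the Sox1 lineage are not targeted. Whether meninges or vessels of this tissue lost Eed was not measured. In the ventral neural tube, Sonic hedgehog from the notochord and floor plate induces Nkx2-2, Nkx2-9, Nkx6-1 and Nkx6-2 in ordered progenitor domains, and in the ventral forebrain it induces Nkx2-1. Outside the neural tube, Nkx2-5 is a cardiac factor, Nkx2-3 acts in spleen and gut mesenchyme, and Nkx3-2 (also called Bapx1) acts in cartilage of the axial skeleton.

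The promoters of 4 members are printed to show the spread of CpG content in the family and the genes on which the results below turn, since CpG-rich promoters are typical PRC2 targets in mammals. Each runs from 250 bases before to 50 bases after the RefSeq start (GRCm38.p6), 5′ to 3′ on the gene's own strand, with every CG dinucleotide in capitals. Nkx2-1 lies at chr12:56536859-56537158, Nkx2-2 at chr2:147186353-147186652, Nkx6-1 at chr5:101664662-101664961 and Nkx2-5 at chr17:26841516-26841815, all on the minus strand. The windows of Nkx2-2, Nkx6-1, Nkx2-5 and Nkx3-2 fall inside the gene spans given by GENCODE, which begin further upstream.
Nkx2-1: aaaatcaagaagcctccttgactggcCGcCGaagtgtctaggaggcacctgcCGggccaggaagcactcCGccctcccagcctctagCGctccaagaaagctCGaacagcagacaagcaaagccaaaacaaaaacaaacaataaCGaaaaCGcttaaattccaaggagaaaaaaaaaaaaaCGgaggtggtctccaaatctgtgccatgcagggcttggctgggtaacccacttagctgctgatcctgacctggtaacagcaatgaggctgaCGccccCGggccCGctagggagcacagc
Nkx2-2: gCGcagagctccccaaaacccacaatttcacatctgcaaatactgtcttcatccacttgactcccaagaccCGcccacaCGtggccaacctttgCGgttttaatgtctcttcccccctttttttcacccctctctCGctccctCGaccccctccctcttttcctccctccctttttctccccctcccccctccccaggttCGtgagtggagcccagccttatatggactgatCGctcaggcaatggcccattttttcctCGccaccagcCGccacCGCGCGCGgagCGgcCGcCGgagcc
Nkx6-1: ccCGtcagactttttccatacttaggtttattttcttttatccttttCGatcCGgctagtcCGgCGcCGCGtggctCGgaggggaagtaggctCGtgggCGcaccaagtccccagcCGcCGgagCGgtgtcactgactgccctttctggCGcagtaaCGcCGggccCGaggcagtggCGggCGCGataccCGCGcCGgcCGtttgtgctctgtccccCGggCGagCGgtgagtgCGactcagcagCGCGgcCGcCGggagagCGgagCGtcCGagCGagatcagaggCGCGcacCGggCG
Nkx2-5: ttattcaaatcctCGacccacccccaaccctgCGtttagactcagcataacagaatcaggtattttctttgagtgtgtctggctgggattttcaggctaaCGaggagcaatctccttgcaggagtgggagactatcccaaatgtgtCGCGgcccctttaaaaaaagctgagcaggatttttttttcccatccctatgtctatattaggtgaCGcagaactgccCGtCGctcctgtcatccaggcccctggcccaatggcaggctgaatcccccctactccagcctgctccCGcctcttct

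RefSeq promoters were found for 9 of 9 members, and all held more CG dinucleotides than the median of 7 over 32841 mouse promoters of the same length. Nkx6-1 had 40, a number reached by 3.91% of all promoters, and Nkx2-4 had 38, reached by 4.95%. Nkx6-2 had 32 and Nkx3-2 had 25. Nkx2-2 had 17, Nkx2-9 and Nkx2-3 had 15 each, and Nkx2-1 had 12, reached by 39.6% of all promoters. Nkx2-5 had the fewest of the 9, with 9 CG dinucleotides, a number reached by 45.8% of promoters. The letters CAAGTG, the core site of NK2-class homeodomains, were searched on both strands and occurred in 1 member, in Nkx2-2 at position -197 from the start, against 13.6% of all promoters. The GLI site TGGGTGGTC was in 0 members and in 0.253% of promoters, and TATAAA was in 0 members and in 13.6% of promoters. These matches describe letters only, and these motifs do not overlap one another.

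The names of the E15.5 columns had to be put back into row order before use, because they were sorted differently from the E13.5 columns. All 15 rows whose names begin with Nkx moved in this step. Over the 200 names nearest the NKX genes, log2 levels of wt forebrain at E15.5 and E13.5 correlated with r = 0.943 in the restored order, and with r = 0.16 to 0.276 when the restored order was shifted by 1 to 3 rows. In the order as deposited r was 0.0601, and Nktr, beside the NKX genes, read 0.1 and 0 RPKM in wt E15.5 forebrain. In the restored order it had 23 and 17.7 RPKM there, beside 19 and 20 RPKM in E13.5 forebrain. Every E15.5 value below rests on the restored order. The summed RPKM per library was 761647 to 843297 at E15.5 and 378294 to 397320 at E13.5, so RPKM levels of different ages are given side by side without a test.

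Eed had 10 and 10.6 RPKM in EED-cKO forebrain, against 25.8 and 27.9 RPKM in wt E15.5 forebrain. Emx1, a marker of the dorsal telencephalon, had 9.1 and 7.5 RPKM in EED-cKO forebrain and 36.5 and 50.2 RPKM in wt E15.5 forebrain, and it had 0.1 and 0 RPKM in spinal cord and 59.3 and 56.1 RPKM in E13.5 forebrain. Hoxb8, a marker of spinal levels, had 7.1 and 5.9 RPKM in EED-cKO forebrain and 0 in both wt E15.5 libraries, and it had 367.3 and 408.4 RPKM in spinal cord and at most 0.1 RPKM in E13.5 forebrain. The EED-cKO libraries also differed from each other. Replicate 2 stood apart, with 18 genes at least 3 log2 units higher than in replicate 1 and 4 genes lower by as much. The thyroid product Tg had 39 RPKM in replicate 2 and 0.1 RPKM in replicate 1, and the skeletal muscle enzyme gene Ckm had 14.6 and 0.2 RPKM. Pomc, of pituitary and hypothalamus, had 103.6 and 9 RPKM. The skeletal muscle list summed to 137.4 RPKM in EED-cKO replicate 2 and 6.5 RPKM in replicate 1, against 5.1 and 7.5 RPKM in wt E15.5 forebrain. Knockout results are therefore also given without EED-cKO replicate 2.

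**Figure D1:**
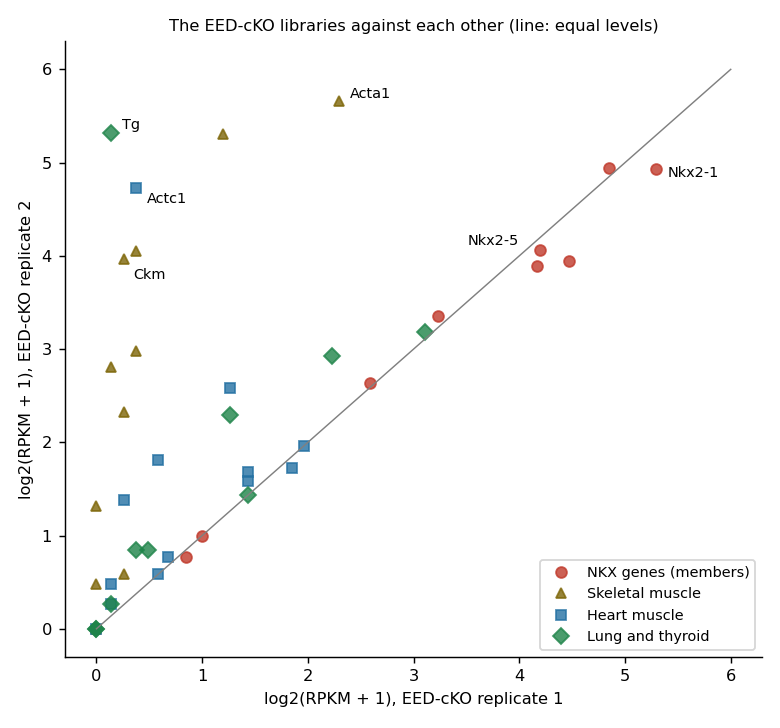
Level of each gene in EED-cKO replicate 2 (vertical axis) against EED-cKO replicate 1 (horizontal axis), both as log2(RPKM + 1), for the 9 NKX genes and genes of 3 lists of other tissues. The line marks equal levels. The NKX genes lie near the line, with Nkx2-1 at 29.4 RPKM in replicate 2 and 38.3 RPKM in replicate 1, whereas Tg, Ckm, Acta1 and Actc1 lie far above it.

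In EED-cKO forebrain, the 9 NKX genes were higher than in wt E15.5 forebrain in both libraries, without overlap between the groups for any of them. The mean RPKM of Nkx2-2 was 4.81 times, that of Nkx2-4 4.55 times and that of Nkx2-3 10.3 times the wt mean. Nkx2-5 stood at 16.5 ± 1.13 RPKM in EED-cKO forebrain (SD, n = 2) and was listed at 0 in every wt library of either age and tissue. Nkx2-1, which had the highest level of the 9 in wt forebrain, had a 1.75-fold higher mean RPKM. Over all genes, the background was high, since limma called 46.9% of 17022 tested genes in this comparison, 30.2% as higher and 16.7% as lower in EED-cKO. The groups did not overlap, with EED-cKO higher, for 42.6% of tested genes. Calls are at an adjusted p under 0.05 for the difference in log2(RPKM + 1), which understates the change of low genes. In bulk tissue, a change in the number of cells of a type and a change of RNA per cell cannot be told apart.

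**Figure D2:**
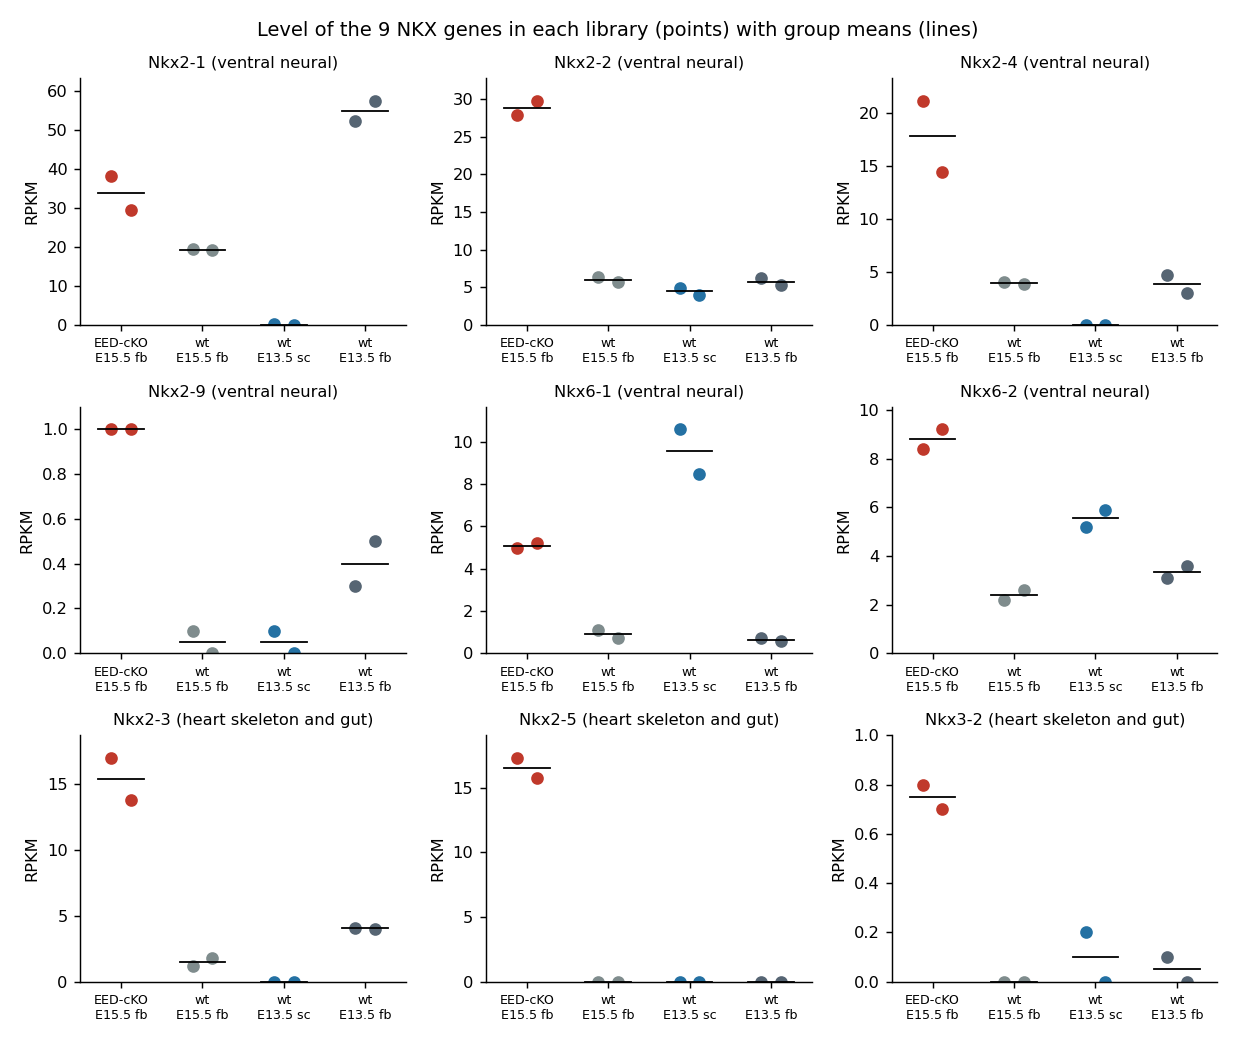
RPKM of each of the 9 NKX genes (vertical axes, each starting at 0) in every library (points), with the group mean (line), for EED-cKO and wt E15.5 forebrain (fb) and for wt E13.5 spinal cord (sc) and forebrain. Both EED-cKO points lie above both wt E15.5 points in every panel, and Nkx6-1 and Nkx6-2 are the members with higher points in spinal cord than in E13.5 forebrain in both libraries.

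Nkx2-1 specifies the medial ganglionic eminence and the hypothalamus. It had 38.3 and 29.4 RPKM in EED-cKO forebrain, against 19.4 and 19.2 RPKM in wt E15.5 forebrain. The wt libraries lay close together, and the EED-cKO libraries were both higher but spread by 6.29 RPKM (SD). The log2 change was 0.77 ± 0.127 (SE, limma adjusted p = 0.00288), and it was 0.95 without EED-cKO replicate 2. The call was lost with a pseudocount of 0.1 (log2 0.79, limma adjusted p = 0.0732). An antisense transcript, Gm26973, shares 1566 bases with Nkx2-1 and had 1.6 and 1.4 RPKM in EED-cKO forebrain, against 0.3 and 0.5 RPKM in wt. Reads were unstranded, so reads of overlapping genes cannot be told apart.

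Nkx2-4, a close relative of Nkx2-1 that is expressed in the developing hypothalamus, had 21.1 and 14.4 RPKM in EED-cKO forebrain, against 4 and 3.8 RPKM in wt. Both EED-cKO libraries were higher than both wt libraries, although they differed from each other by more than the wt pair did. The log2 change was 1.91 ± 0.210 (SE, limma adjusted p = 0.000545), and 2.17 without EED-cKO replicate 2.

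Nkx2-2 marks the most ventral neuronal progenitors of the neural tube, which give rise to V3 interneurons, and it also acts in oligodendrocytes and pancreatic islets. It had 27.9 and 29.8 RPKM in EED-cKO forebrain, against 6.3 and 5.7 RPKM in wt. Its libraries agreed closely within each group, and the groups were far apart. The log2 change was 2.09 ± 0.115 (SE, limma adjusted p = 4.92e-05), and 2.05 without EED-cKO replicate 2. The antisense transcript Nkx2-2os, which shares 10161 bases with the Nkx2-2 gene, had 1.5 and 1.6 RPKM in EED-cKO forebrain and 0.3 and 0.4 RPKM in wt (log2 0.92 ± 0.0745 SE, limma adjusted p = 0.000183). Nkx2-2os passed the filter only through the EED-cKO libraries.

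Nkx2-9, whose domain lies beside the floor plate, had 1 RPKM in both EED-cKO libraries, against 0.1 and 0 RPKM in wt. This is a low level, and Nkx2-9 entered the test only because both EED-cKO libraries reached 1 RPKM. The log2 change was 0.93 ± 0.101 (SE, limma adjusted p = 0.000521), with the same value of 0.93 without EED-cKO replicate 2.

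Nkx6-1 is needed for motor neuron and V2 interneuron progenitors of the spinal cord. It had 5 and 5.2 RPKM in EED-cKO forebrain, against 1.1 and 0.7 RPKM in wt, and the groups were well separated (log2 1.69 ± 0.139 SE, limma adjusted p = 0.000191, and 1.67 without EED-cKO replicate 2). Nkx6-2, its paralogue with a later role in myelinating glia, had 8.4 and 9.2 RPKM in EED-cKO forebrain, against 2.2 and 2.6 RPKM in wt. Its log2 change was 1.53 ± 0.112 (SE, limma adjusted p = 0.000125), and 1.47 without EED-cKO replicate 2. Both Nkx6 genes thus differed between the groups by more than between replicates. Nkx6-2 shares 277 bases with Inpp5a on the other strand, which had 27.2 and 29.8 RPKM in EED-cKO forebrain and 19.5 and 19.3 RPKM in wt.

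Nkx2-3 had 17 and 13.8 RPKM in EED-cKO forebrain, against 1.2 and 1.8 RPKM in wt. The lower EED-cKO library was still several times as high as either wt library. The log2 change was 2.72 ± 0.143 (SE, limma adjusted p = 4.15e-05), and 2.86 without EED-cKO replicate 2.

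Nkx2-5 had 17.3 and 15.7 RPKM in EED-cKO forebrain, while both wt libraries of E15.5 and all 4 libraries of E13.5 listed it at 0. It passed the filter on low values only through the EED-cKO libraries. The log2 change was 4.13 ± 0.0806 (SE, limma adjusted p = 7.44e-07), and 4.19 without EED-cKO replicate 2. No fold is given against a group at 0.

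Nkx3-2 had 0.8 and 0.7 RPKM in EED-cKO forebrain, and the wt libraries of the same age listed it at 0. It stayed below the filter of 1 RPKM in at least 2 libraries and was not tested. Without the filter, its log2 change of 0.81 had a limma adjusted p of 0.00439.

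Of the 6 ventral neural members, 6 were called higher in EED-cKO, with a median log2 change of 1.61. Of the other 3 members, 2 were tested and both were called higher, and the median over the 3 was 2.72. The median over all tested genes was 0.08. The filter let Nkx2-9 and Nkx2-5 in through the EED-cKO libraries alone, so these counts describe the members and are not read as support. Quantile normalization and median ratio scaling each moved the median of all tested genes to -0.04 and scaling to the same sum of RPKM moved it to 0.14, and the calls and directions of the 8 tested members were the same in each. The summed level of the 9 genes was 136.8 and 119.2 RPKM in EED-cKO forebrain, against 34.3 and 33.8 RPKM in wt. Nkx2-1 made up 28% and 24.7% of that sum in EED-cKO forebrain and 56.6% and 56.8% in wt, while Nkx2-5 made up 12.6% and 13.2% in EED-cKO and 0% in wt.

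The order of levels differed in detail between the groups. In EED-cKO forebrain, Nkx2-1 and Nkx2-2 came first, with overlapping libraries, followed by Nkx2-4, Nkx2-5 and Nkx2-3, whose libraries also overlapped (13.8 to 21.1 RPKM), then Nkx6-2, Nkx6-1, Nkx2-9 and Nkx3-2, each below the one before without overlap. In wt E15.5 forebrain the order was Nkx2-1, Nkx2-2, Nkx2-4, Nkx6-2, Nkx2-3 and Nkx6-1, without overlap between neighbours, and the other 3 had at most 0.1 RPKM. RPKM is scaled to gene length, so these levels can be compared between genes.

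At E13.5, the ventral neural genes split between the tissues. Nkx6-1 and Nkx6-2 were higher in spinal cord, and Nkx2-1, Nkx2-4 and Nkx2-9 were lower there than in forebrain. Nkx2-2 was present in both tissues. Nkx2-3 was detected in forebrain and listed at 0 in spinal cord, and Nkx2-5 was listed at 0 in both. Limma called 45.7% of tested genes in this comparison, 21.8% higher and 23.9% lower in spinal cord, and the groups did not overlap for 37% with spinal cord higher and for 39.3% with spinal cord lower.

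**Figure D3:**
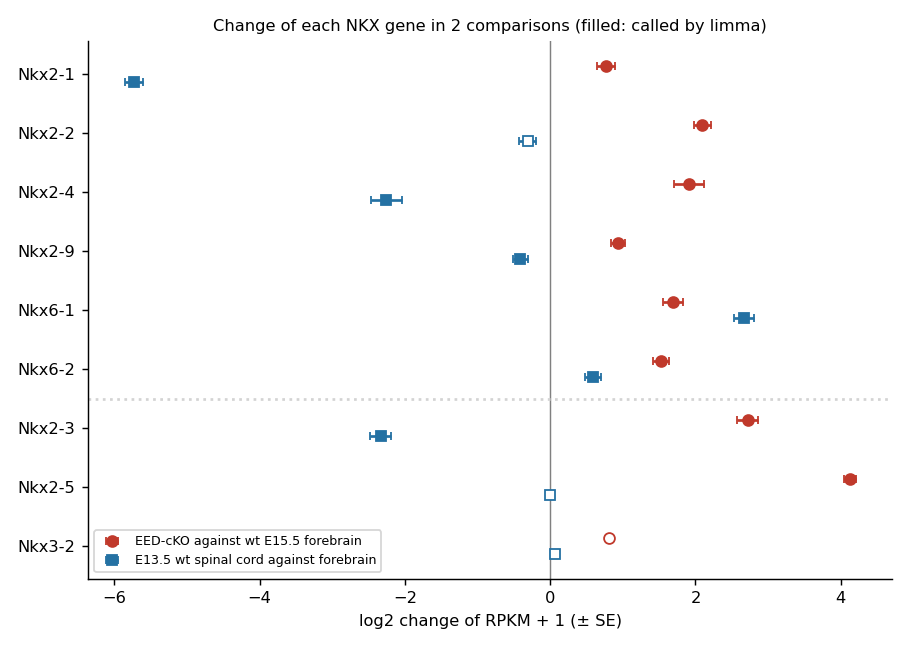
Change of each NKX gene as the difference of mean log2(RPKM + 1) (horizontal axis, ± SE) for EED-cKO against wt E15.5 forebrain (red circles) and for wt E13.5 spinal cord against forebrain (blue squares). Filled symbols were called by limma, and open symbols were not called or, for Nkx3-2, not tested and without SE. All red symbols are above 0, whereas the blue ones run from -5.73 for Nkx2-1 to 2.67 for Nkx6-1.

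Nkx6-1 had 10.6 and 8.5 RPKM in spinal cord, against 0.7 and 0.6 RPKM in E13.5 forebrain, a 14.7-fold higher mean (log2 2.67 ± 0.139 SE, limma adjusted p = 1.52e-05). It was the most abundant member in spinal cord. Nkx6-2 had 5.2 and 5.9 RPKM in spinal cord, against 3.1 and 3.6 RPKM in E13.5 forebrain (log2 0.59 ± 0.112 SE, limma adjusted p = 0.00462). The paralogues thus both separated the tissues without overlap. The difference between their changes was not tested.

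Nkx2-2 had 4.9 and 4 RPKM in spinal cord, against 6.2 and 5.3 RPKM in E13.5 forebrain. The groups did not overlap, but the difference did not pass the test (log2 -0.31 ± 0.115 SE, limma adjusted p = 0.0626). It passed with quantile normalization (log2 -0.34, limma adjusted p = 0.0260) and with median ratio scaling (log2 -0.34, limma adjusted p = 0.0351). It also passed in a replicate block with the EED-cKO numbers crossed, chosen after seeing the data (log2 -0.31, limma adjusted p = 0.0207).

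Nkx2-1 had 0.1 and 0 RPKM in spinal cord, against 52.2 and 57.5 RPKM in E13.5 forebrain, where it was the most abundant member (log2 -5.73 ± 0.127 SE, limma adjusted p = 3.96e-07). Nkx2-4 was listed at 0 in both spinal cord libraries and had 4.7 and 3 RPKM in E13.5 forebrain (log2 -2.26 ± 0.210 SE, limma adjusted p = 0.000182). Nkx2-3 was likewise at 0 in spinal cord and had 4.1 and 4 RPKM in E13.5 forebrain (log2 -2.34 ± 0.143 SE, limma adjusted p = 2.85e-05). These 3 genes were present in forebrain and at or near 0 in spinal cord. Barx1, of stomach mesenchyme, likewise had 3.4 and 2.5 RPKM in E13.5 forebrain and 0 in both spinal cord libraries. Of the 7 tested genes of gut and spleen, 1 was called higher and 1 lower in spinal cord. Which cells of the dissected forebrain held Nkx2-3 was not tested.

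Nkx2-9 had 0.1 and 0 RPKM in spinal cord, against 0.3 and 0.5 RPKM in E13.5 forebrain (log2 -0.41 ± 0.101 SE, limma adjusted p = 0.0137). The call was lost without forebrain replicate 2 (log2 -0.31, limma adjusted p = 0.0823), without spinal cord replicate 2 (log2 -0.34, limma adjusted p = 0.0765) and when only the 4 E13.5 libraries were fitted (limma adjusted p = 0.0543). Nkx3-2 had 0.2 and 0 RPKM in spinal cord and 0.1 and 0 RPKM in E13.5 forebrain, and it was not tested. Of the 6 ventral neural members, 2 were thus called higher and 3 lower in spinal cord, with a median of -0.36, and of the 2 tested other members 1 was lower. The median of all tested genes was 0.

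Levels in EED-cKO forebrain can be set beside those of spinal cord without a test. Nkx6-1 had 5.1 ± 0.141 RPKM in EED-cKO forebrain and 9.55 ± 1.48 RPKM in E13.5 spinal cord (SD, n = 2 each). As a share of the summed RPKM of a library, this was 6.65 ± 0.247 ppm in EED-cKO forebrain and 25.1 ± 3.76 ppm in E13.5 spinal cord (SD, n = 2 each). Nkx2-1 had 33.9 ± 6.29 RPKM in EED-cKO forebrain and 0.05 ± 0.0707 RPKM in spinal cord (SD, n = 2 each). Nkx2-2 had 28.9 ± 1.34 RPKM in EED-cKO forebrain, above the 6.3 RPKM that was its highest value in any wt library. On the same scale of shares, Nkx2-1 took 44.1 ± 7.79 ppm in EED-cKO forebrain, while the wt forebrain shares were 23.9 ± 1.59 ppm at E15.5 and 138 ± 9.06 ppm at E13.5 (SD, n = 2 each). These differences in age were not tested.

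Some members lie near each other on a chromosome, and others lie singly. In GRCm38, Nkx2-4 (chromosome 2, 147083316 to 147085445) and Nkx2-2 (chromosome 2, 147177546 to 147194243) start 108.8 kb apart, and Pax1, a sclerotome factor, starts 168 kb from Nkx2-2. Pax1 had 3.5 and 3.4 RPKM in EED-cKO forebrain and was listed at 0 in both wt libraries (log2 2.15 ± 0.268 SE, limma adjusted p = 0.000884). It passed the filter through the EED-cKO libraries, since outside them it reached 1 RPKM in spinal cord replicate 1 alone, with 1.3 RPKM. Foxa2, the floor plate factor, starts 853 kb from Nkx2-2 and had 11.5 and 11.7 RPKM in EED-cKO forebrain, against 1 and 0.5 RPKM in wt (log2 2.86 ± 0.163 SE, limma adjusted p = 6.02e-05). On the other side of Nkx2-4, 72.4 kb from it, the exonuclease gene Xrn2 had 60.9 and 60.5 RPKM in EED-cKO forebrain, against 69.9 and 68.6 RPKM in wt, and was called lower (log2 -0.19 ± 0.0543 SE, limma adjusted p = 0.0268).

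On chromosome 12, Nkx2-1 (56531958 to 56536908) and Nkx2-9 (56611389 to 56613284) start 76.4 kb apart, with Pax9 78.5 kb beyond Nkx2-9. Pax9, a factor of pharyngeal pouches and sclerotome, had 0.6 and 1 RPKM in EED-cKO forebrain and was listed at 0 in wt, below the filter. Mbip, 191 kb from Nkx2-1 on the other side, had 12.9 and 14 RPKM in EED-cKO forebrain and 15.4 and 18.4 RPKM in wt and was not called (log2 -0.30 ± 0.115 SE, limma adjusted p = 0.0646). The remaining members lie singly, with Nkx6-1 and Nkx3-2 on chromosome 5, Nkx6-2 on chromosome 7, Nkx2-3 on chromosome 19 and Nkx2-5 on chromosome 17. Within 500 kb of the members, 79 genes other than the members were in the table, 53 were tested, and 23 were called higher and 5 lower in EED-cKO. Their median log2 change was 0.17. Over all 17022 tested genes, 30.2% were called higher and 16.7% lower, and the median was 0.08. Around Nkx2-5, 17 neighbours were tested, 2 were called higher and 2 lower. Counting other members too, 6 were tested around each of Nkx2-2 and Nkx2-4, with 5 higher and 1 lower. Around Nkx6-2, 13 were tested, 9 higher and 2 lower, and around Nkx2-3, 11, with 4 higher and 0 lower. Around each of Nkx2-1 and Nkx2-9, 4 were tested, 3 higher and 0 lower. Each of Nkx6-1 and Nkx3-2 had 2 tested, 1 higher and 0 lower.

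**Figure D4:**
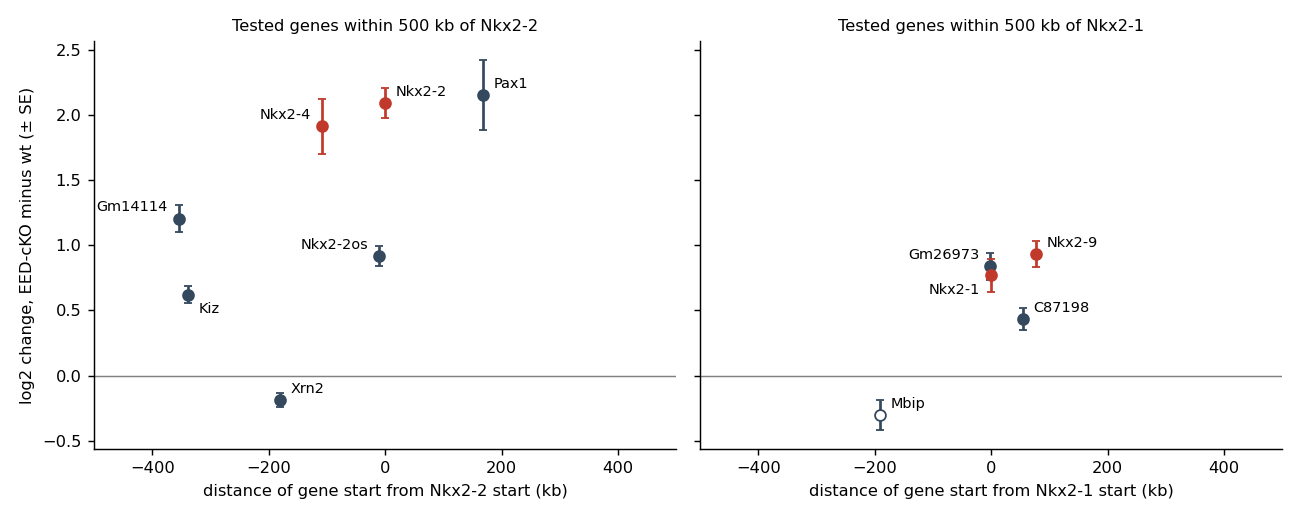
Change in EED-cKO against wt E15.5 forebrain (vertical axis, difference of log2(RPKM + 1) ± SE) of the tested genes within 500 kb of Nkx2-2 (left) and Nkx2-1 (right), by distance of their starts (horizontal axis, kb). Filled points were called by limma and NKX members are red. Nkx2-4, Nkx2-2 and Pax1 lie near 2 on the left, Xrn2 lies below 0, and on the right Nkx2-1 and Nkx2-9 lie near 0.8 to 0.9.

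NKX genes outside the chosen 9 were read in the same way. Nkx1-1 had 1.2 and 1.3 RPKM in EED-cKO forebrain, against 0.1 RPKM in both wt libraries (log2 1.03 ± 0.0778 SE, limma adjusted p = 0.00014), and it had 6 and 5.6 RPKM in spinal cord, against 0 in E13.5 forebrain (log2 2.76 ± 0.0778 SE, limma adjusted p = 1.16e-06). Nkx2-6 had 0.4 and 0.3 RPKM in EED-cKO forebrain and 0 in every wt library. Nkx1-2 stayed at or below 0.9 RPKM and Nkx6-3 at or below 0.2 RPKM in every library.

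The counts for this and the following lists stand beside 30.2% of all tested genes called higher and 16.7% lower in EED-cKO. Between the E13.5 tissues the shares were 21.8% and 23.9%. Of the 17022 genes tested in EED-cKO, 3564 were higher and 4192 lower after quantile normalization, and 3861 and 4642 after median ratio scaling. Hedgehog signalling is the pathway that induces the ventral neural members. Among 14 of its genes, 8 were called higher and 1 lower in EED-cKO forebrain, with a median log2 change of 0.57. The ligand Shh had 5.5 RPKM in both EED-cKO libraries, against 2.3 and 2.7 RPKM in wt (log2 0.90 ± 0.10 SE, limma adjusted p = 0.000592). Gli1, a transcriptional target and effector, had 9.1 and 8.3 RPKM in EED-cKO forebrain, against 3.7 and 3.4 RPKM in wt (log2 1.09 ± 0.138 SE, limma adjusted p = 0.000954). The receptor Ptch1 (log2 0.98) and the antagonist Hhip (log2 1.12) were also higher. Hhip had at most 0.9 RPKM in wt libraries and passed the filter only through the EED-cKO libraries. Gas1, a coreceptor, was called lower (log2 -0.27), a call that was lost without either EED-cKO library. Without EED-cKO replicate 2 the list had 7 higher and 0 lower, and after quantile normalization 6 higher and 4 lower. Between the E13.5 tissues, 1 of the 14 was higher and 7 were lower in spinal cord, and Shh (5.2 and 5.3 RPKM in spinal cord, 5.7 and 6.6 RPKM in forebrain) and Gli1 were not called.

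Other genes of dorsoventral patterning did not all move with the ventral members. Of 8 dorsoventral partner factors, 4 were called higher (Foxa2, Dbx1, Dbx2 and Irx3) and 0 lower, and 3 were higher without EED-cKO replicate 2. Olig2, the motor neuron and oligodendrocyte progenitor factor, had 11.8 and 10.3 RPKM in EED-cKO forebrain, against 14.7 and 12.9 RPKM in wt, and did not pass the test (log2 -0.30 ± 0.103 SE, limma adjusted p = 0.0505). After median ratio scaling the list had 4 higher and 2 lower. Of 8 floor plate and notochord genes 6 were tested, and 5 were higher and 1 was lower, with and without EED-cKO replicate 2. The notochord gene Noto was listed at 0 in every library, and T had at most 0.5 RPKM.

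Genes of ventral spinal neurons were higher in EED-cKO forebrain for 13 of 14 tested, with 0 lower and a median of 1.49 over the 15 listed. Between the E13.5 tissues, 9 of the 14 were called higher and 1, Sim1, lower in spinal cord. Sox14, Gata2, Gata3 and Tal1 were not called between those tissues, so the list does not mark spinal cord alone. Mnx1, of motor neurons, had 6.3 and 5.2 RPKM in EED-cKO forebrain and was listed at 0 in wt (log2 2.75 ± 0.110 SE, limma adjusted p = 1.45e-05). Sim1, of the V3 interneurons that arise from Nkx2-2 progenitors, had 4 and 2.9 RPKM in EED-cKO forebrain, against 1 and 0.9 RPKM in wt (log2 1.18 ± 0.148 SE, limma adjusted p = 0.000904), and it is also a hypothalamic gene. En1, of V1 interneurons, had 10.4 and 10.9 RPKM in EED-cKO forebrain, against 1 and 0.4 RPKM in wt. In E13.5 spinal cord, En1 had 2.8 and 2.2 RPKM, Sim1 had 0.8 and 1.2 RPKM and Mnx1 had 7.3 and 6.3 RPKM. In EED-cKO against wt E15.5 forebrain, Isl1 was not called (log2 0.43, limma adjusted p = 0.0604). Without EED-cKO replicate 2 the list had 11 higher and 0 lower.

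Lists of forebrain territories in which Nkx2-1 acts went in opposite directions. Of 15 genes of the medial ganglionic eminence and ventral telencephalon, 10 were called lower and 1 higher in EED-cKO forebrain, with a median of -0.57. Lhx6, a direct target of Nkx2-1 in cortical interneuron precursors, had 2.8 and 2.6 RPKM in EED-cKO forebrain, against 17.2 and 17 RPKM in wt (log2 -2.29 ± 0.0760 SE, limma adjusted p = 6.99e-06). Lhx8, of cholinergic neurons of the same origin, had 13.9 and 11.6 RPKM in EED-cKO forebrain and 12.1 and 14 RPKM in wt, with overlapping groups (log2 -0.03 ± 0.128 SE, limma adjusted p = 0.860). Dlx2 fell to 22.1 and 16 RPKM in EED-cKO forebrain, against 57.6 and 53 RPKM in wt. Without EED-cKO replicate 2, 8 of the 15 were lower and 1 was higher.

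Of 15 hypothalamic genes, 9 were called higher and 1 lower in EED-cKO forebrain, with a median of 1.0, and the counts were the same without EED-cKO replicate 2. Six6 had 25.1 and 22.3 RPKM in EED-cKO forebrain, against 1.9 and 2.3 RPKM in wt (log2 2.99 ± 0.125 SE, limma adjusted p = 1.83e-05). Otp, of neuroendocrine neurons, had 42.5 and 35 RPKM in EED-cKO forebrain, against 11.7 and 10 RPKM in wt (log2 1.74 ± 0.121 SE, limma adjusted p = 0.000103). Rax was higher as well (log2 1.18 ± 0.120 SE). Sim2, also called higher, would not have passed the filter without the EED-cKO libraries, where it had 1.8 and 2.2 RPKM. Hcrt, the orexin gene, had 0.4 and 0.2 RPKM in EED-cKO forebrain, against 1.2 and 1.9 RPKM in wt, and was called lower. The rest of the list was not called. These genes were Fezf1 (log2 0.29), Nr5a1 (log2 0.19), Vax1 (log2 0.03), Trh (log2 -0.12) and Pomc (log2 2.12). Nkx2-1 and Nkx2-4 thus moved in the direction of most, but not all, hypothalamic genes and against most ganglionic eminence genes on the lists. The part of the makeup of the dissected tissue in these values was not tested.

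**Figure D5:**
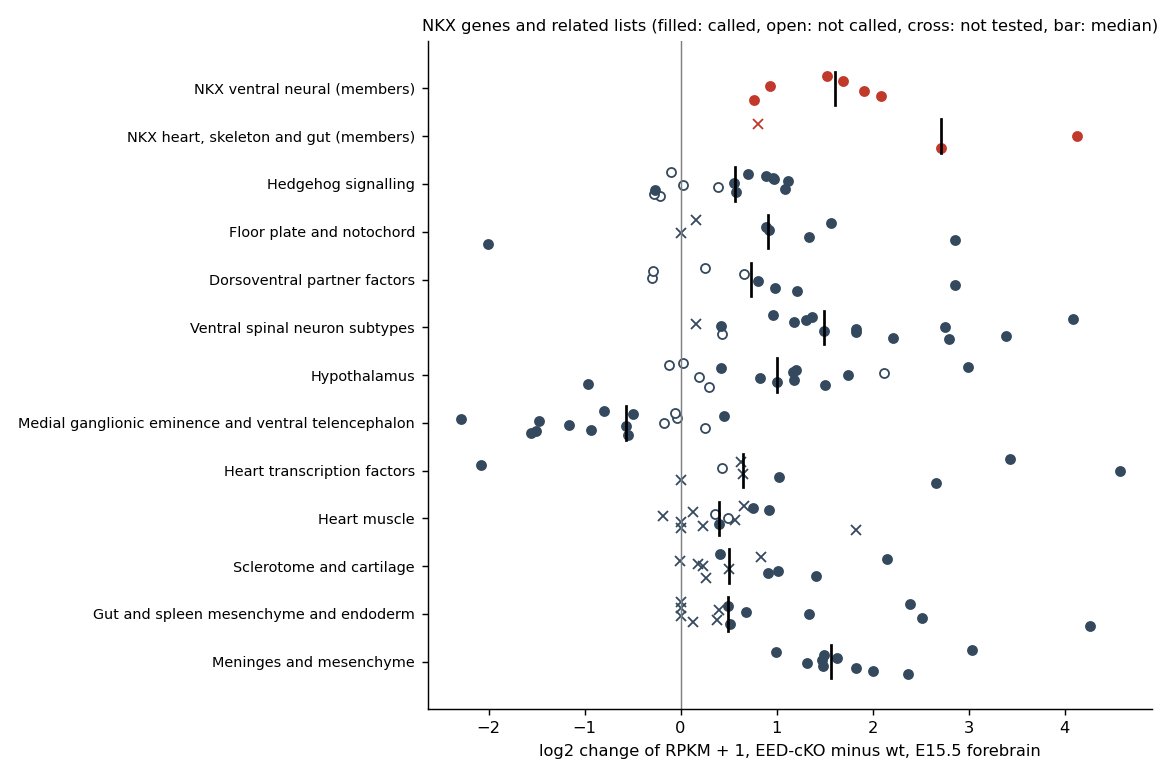
Change of each gene in EED-cKO against wt E15.5 forebrain (horizontal axis, difference of log2(RPKM + 1)) for the NKX members (red) and 11 lists of related genes (dark). Filled points were called by limma, open points were not called, crosses were not tested, and the bar is the median over all listed genes, which is 1.61 for the ventral neural members, 1.0 for the hypothalamus and -0.57 for the ganglionic eminence.

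For the members of heart, skeleton and gut, markers of those tissues were read beside them. Of 9 heart transcription factors 6 were tested, and 4 were called higher and 1 lower, with and without EED-cKO replicate 2. Hand2 had 22.8 RPKM in both EED-cKO libraries, Tbx5 had 10.6 and 9.1 RPKM and Gata4 had 5.9 and 4.8 RPKM, and all 3 were listed at 0 in wt E15.5 forebrain, so they entered the test through the EED-cKO libraries. Gata6, with 1.8 and 1.3 RPKM in EED-cKO forebrain and at most 0.3 RPKM in wt libraries, also passed the filter through EED-cKO alone. Gata5 was listed at 0 in every library, and Mef2c, which is also a cortical gene, was lower (log2 -2.08). Genes of heart muscle were low. Mybpc3 was listed at 0 in every library, Myh6 had 0.6 and 0.7 RPKM in EED-cKO forebrain and 0.4 RPKM in both wt libraries, and Nppb had at most 0.2 RPKM. Of 13 heart muscle genes 5 were tested and 3 were called higher (Tnni3, Myh7 and Ryr2, with log2 changes of 0.41 to 0.92). The list summed to 12.6 and 45.7 RPKM in EED-cKO forebrain, against 10.3 and 7.8 RPKM in wt, and the higher EED-cKO value was that of replicate 2, where Actc1 had 25.4 RPKM, against 0.3 RPKM in replicate 1. Nkx2-5 itself had 17.3 RPKM in replicate 1 and 15.7 RPKM in replicate 2, and the part of heart cells in these levels was not tested.

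Beside Nkx3-2, 5 of 12 sclerotome and cartilage genes were tested and 5 were called higher, or 3 without EED-cKO replicate 2. The cartilage genes Acan and Matn1 had at most 0.6 RPKM in EED-cKO forebrain, and Col2a1 had 24.3 and 23.6 RPKM, against 13.5 and 11.1 RPKM in wt. Beside Nkx2-3, 7 of 13 genes of gut and spleen were tested and 7 were called higher, with and without EED-cKO replicate 2, and 5 after quantile normalization. Barx1, of stomach mesenchyme, had 21.4 and 17.1 RPKM in EED-cKO forebrain, against 0.1 and 0 RPKM in wt. Tlx1, which is needed for the spleen, had 4.7 and 3.8 RPKM in EED-cKO forebrain and was listed at 0 in wt. The endoderm genes Hnf4a and Foxa3 were listed at 0 in every library, and Vil1 had at most 0.2 RPKM. Other genes of the same list were called higher. Foxa1 had 16 and 18.8 RPKM in EED-cKO forebrain, against 2.7 and 1.8 RPKM in wt. Sox17 had 7.7 and 8.9 RPKM, against 5.8 and 5.4 RPKM in wt. Cdh17 had 1.3 and 1 RPKM, against 0.5 RPKM in both wt libraries, and passed the filter only through the EED-cKO libraries. Of 10 genes of meninges and mesenchyme, 10 were called higher with and without EED-cKO replicate 2, and the list summed to 740.1 and 908.4 RPKM in EED-cKO forebrain, against 244.9 and 189.3 RPKM in wt. The part of these cells in the levels of Nkx2-3 and Nkx3-2 was not tested.

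Nkx2-1 is also a lung and thyroid factor, and Nkx2-5 is expressed in the thyroid primordium. Of 11 lung and thyroid genes 4 were tested and 4 were called higher (Pax8, Hhex, Slc5a5 and Foxe1), or 2 without EED-cKO replicate 2 and 2 after quantile normalization. Foxe1 had 1.4 and 3.9 RPKM in EED-cKO forebrain and 0 in every wt library, so it passed the filter only through the EED-cKO libraries. The list summed to 15.5 and 68.2 RPKM in EED-cKO forebrain, against 5.1 and 3.4 RPKM in wt. Its high value was that of replicate 2, where Tg had 39 RPKM. In EED-cKO replicate 1, Tg had 0.1 RPKM, Nkx2-1 had 38.3 RPKM and Nkx2-5 had 17.3 RPKM. In the same library Pax8 had 7.6 RPKM, against 0.1 RPKM in both wt E15.5 libraries, and Foxe1 had 1.4 RPKM, against 0. Pax8 does not mark thyroid alone in these data, since it had 23 and 22.7 RPKM in wt E13.5 spinal cord. The part of thyroid tissue in the levels of Nkx2-1 and Nkx2-5 was not tested. The surfactant gene Sftpb had 0.3 and 0.8 RPKM in EED-cKO forebrain, against 0.4 and 0.3 RPKM in wt. Sftpc had at most 0.2 RPKM in EED-cKO forebrain, and Sftpa1 and the airway gene Scgb1a1 were listed at 0 there. Beside Nkx2-2 and Nkx6-2, which also act in oligodendrocytes, 6 of 10 oligodendrocyte genes were called higher and 3 lower, or 5 and 1 without either EED-cKO library. Of the genes of oligodendrocyte precursors, Pdgfra was called higher, with 22.5 and 22.2 RPKM in EED-cKO forebrain, against 12.9 and 9.6 RPKM in wt. Cspg4 was also called higher, with 3.5 and 3.7 RPKM in EED-cKO forebrain, against 2.4 and 1.8 RPKM in wt. Gpr17, also of precursors, was called lower, with 0.2 and 0.1 RPKM in EED-cKO forebrain, against 3.8 and 3.2 RPKM in wt, and Mag, of myelin, had 5.8 RPKM in both EED-cKO libraries, against 1.5 and 1.6 RPKM in wt. Of 9 pancreatic islet genes 4 were tested, and 2 were higher and 1 was lower, with and without EED-cKO replicate 2, or 1 and 1 without replicate 1. The genes called higher were Ins2 (1.6 and 1.4 RPKM in EED-cKO forebrain, 0.3 and 0.8 RPKM in wt) and Mafa (2.5 and 2.7 RPKM in EED-cKO forebrain, 1.3 and 1.1 RPKM in wt). Ins2 passed the filter only through the EED-cKO libraries. Mafa does not mark islets alone here, with 16.9 and 14.9 RPKM in wt E13.5 spinal cord. Gcg was called lower, with 0 and 0.1 RPKM in EED-cKO forebrain, against 2.2 and 2.5 RPKM in wt. Pdx1 had 0.1 RPKM in both EED-cKO libraries and Ins1 was listed at 0 there, and neither was tested.

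The genes whose profile was most like that of each tested member were found by Pearson r of log2(RPKM + 1) over the 8 libraries, among 13590 genes. These r values describe 4 group means with 2 libraries each. For Nkx2-1 they were Six3os1 (r = 0.997), Fezf1 (r = 0.996) and Nbn (r = 0.993). For Nkx2-2 they were Ucp2 (r = 0.998), Pura (r = 0.998) and Tbc1d4 (r = 0.998), for Nkx2-4 Pdcd4 (r = 0.994), Mboat1 (r = 0.991) and Lmx1a (r = 0.991), and for Nkx2-9 Atoh8 (r = 0.998), Osr2 (r = 0.991) and Foxd1 (r = 0.988). For Nkx6-1 they were Rbms3 (r = 0.997), Prkg1 (r = 0.997) and Hoxa9 (r = 0.995), genes with higher levels in spinal cord than in E13.5 forebrain. Nkx6-2 had the weakest likenesses, with Hic1 (r = 0.968), Amt (r = 0.964) and Tlx1 (r = 0.963). For Nkx2-3 they were Dnaaf3 (r = 0.993), Otx2os1 (r = 0.990) and Alx1 (r = 0.989). Nkx2-5 was nearest to Hoxb13 (37.3 and 34.4 RPKM in EED-cKO forebrain), Hand2 and Cdkn2a (63.9 and 66.4 RPKM). All of them had at most 0.1 RPKM in every wt library and, like Nkx2-5, passed the filter only through the EED-cKO libraries. Any gene near 0 in wt with like levels in the EED-cKO libraries has a high r with Nkx2-5. This likeness is therefore fixed by the zeros and is not read further.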

How the data were processed

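The expression table was deposited by the authors as RPKM values for 8 libraries and 36333 rows. Per the labels, total RNA went into NEBNext Ultra libraries, which a HiSeq2500 read as unstranded single ends of 50 bases, to about 50M reads. The submitters' processing notes name the builds mm9 and GRCm38 without a role, and the aligner, counting tool and annotation are not given in the sources used here. RPKM keeps no counts, so no count model or counting interval was used.

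The E15.5 columns were matched to the names sorted alphabetically with case and hyphens ignored, which moved 23016 names and raised the correlation of wt forebrain at E15.5 and E13.5 over all rows to r = 0.948 in the restored order, against 0.76 in the deposited order. The removal of 16 duplicate rows left 36317 genes. The replicates of a group differed in 18220 to 22245 rows, so no pair was identical. The 17022 genes that reached 1 RPKM in 2 or more of the 8 libraries were tested with limma 3.58.1 (R 4.3.3, trend, two-sided) on log2(RPKM + 1), with 1 spread over the 4 groups (4 residual degrees of freedom), Benjamini-Hochberg adjustment over all tested genes and a threshold of 0.05. An exact permutation test of 2 against 2 libraries cannot go below p = 0.333, so none is given. The code was tested on simulated data. Other steps used Python 3.11.15 (pandas 2.3.3, numpy 2.4.6) and, for plots, matplotlib 3.10.9. Loci and distances are from GENCODE vM21 (GRCm38), matched by symbol, and promoters are from RefSeq (GRCm38.p6).

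The replicate numbers are not stated to pair libraries, and the fit without a replicate block is the main one. The members and gene lists were chosen with earlier results of these data known. Named genes are the 9 members, other NKX genes, genes of the fixed lists and the 3 genes most like each tested member. The genes most alike had a highest library of at least 2 RPKM and no clone names. Mbip, Xrn2, Kiz, Gm14114, Inpp5a and the antisense transcripts were named for their position after their values were seen. Some genes covered by this rule are not reported here. Alternatives covered the pseudocount, the filter, scaling, the libraries fitted, the variance trend, the row order, a replicate block and leaving out each library.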

Additional observations from a re-analysis of the deposited data

How the results depend on the processing

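Without 1 library at a time, the number of genes called in EED-cKO against wt E15.5 forebrain ran from 4922 (without EED-cKO replicate 2) to 9606 (without wt E15.5 replicate 1), against 7987 with all, and it was 4777 when only the 4 libraries compared were fitted. For spinal cord against forebrain at E13.5 it ran from 5205 (without forebrain replicate 2) to 9320 (without wt E15.5 forebrain replicate 2), against 7784, and it was 8582 with only the 4 libraries compared. The cause was not tested. In the row order as deposited, 0 of 5 tested ventral neural members and 0 of 1 tested member of heart, skeleton and gut were called in the knockout comparison, with log2 changes of 0.07 or 0 for each member, because other genes' values then stand beside their names. Of the calls in EED-cKO, 64.5% were higher, against 46% after quantile normalization (3564 higher and 4192 lower), 45.4% after median ratio scaling (3861 and 4642) and 72.4% after scaling to the same sum of RPKM (5213 and 1989, added after seeing the data). Apart from the deposited order, the 8 tested members kept their knockout call in each alternative except Nkx2-1 with a pseudocount of 0.1, and over the libraries left out its log2 change ran from 0.58 to 0.95. The untested Nkx3-2 had log2 changes of 0.51 to 3.09 over pseudocounts and scalings. Samples with the same number deviated together with r = 0.21 between E13.5 forebrain and spinal cord and r = -0.12 between EED-cKO and wt E15.5 forebrain, so the numbers are not shown to pair them. With the replicate block, 4976 genes were higher and 2632 lower in EED-cKO, 3581 higher and 3885 lower in spinal cord, and no member's call changed. With the EED-cKO numbers crossed in the replicate block, the counts in EED-cKO were 5229 higher and 2784 lower. The reads behind the low genes Nkx2-9 and Nkx3-2, which lie within a few steps of 0.1 RPKM of the other group, are unknown.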
